A study of Caenorhabditis elegans with 3 samples.

Results

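The 8 genes described here encode GATA factors of Caenorhabditis elegans that act in the epidermis (elt-1, elt-3, egl-18 and elt-6) and in the gut (end-3, end-1, elt-2 and elt-7). They were chosen by name, not by a measured value, from a table of 19194 genes. These genes and the gene lists used below were, however, chosen with earlier results of these data known. Of the 8 listed genes, 7 have entries in that table and 6 have reads. The gene egl-18 was not analysed here. The gene elt-3 is listed at 0 in each library, so no level is given for it. Levels come from 3 libraries of strain N2, with 1 library per stage: mixed-stage embryo, whole L1 larvae (the stage that follows hatching) and whole young adults. Polyadenylated RNA was read as native strands on a nanopore device, so no copying into cDNA preceded sequencing.

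GATA factors are zinc finger proteins that bind DNA at sites with the core letters GATA. In the worm they form successive tiers of regulators. In the embryo ELT-1 directs cells to the epidermal fate, ELT-3 acts below it in the main epidermis, and EGL-18 with ELT-6 act in the seam cells, the lateral epidermal cells that keep dividing in the larva. In the gut lineage END-3 and END-1 act briefly in the early embryo to specify endoderm. ELT-2 and ELT-7 then take over, and ELT-2 keeps intestinal genes active for the life of the animal.

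Below, embryo, L1 and young adult RNA each mean the single library of that stage. The libraries held 941707 embryo reads, 1017061 L1 reads and 1611049 young adult reads, as estimated by the authors. With 1 library per stage there is no replicate check, so no p-value is given. Intervals are 95% intervals for counting error only. Read shares are given as reads per 1000000 reads of the library (RPM). A count of 0 allows up to 3 reads of a gene, or 3.19 RPM in embryo RNA, 2.95 RPM in L1 RNA and 1.86 RPM in young adult RNA. The stage labels were checked against marker genes. The 5 embryo markers (hch-1, pos-1, pie-1, sdz-1 and hlh-1) summed to 1180 RPM in embryo RNA, 106 in L1 RNA and 484 in young adult RNA. The hatching protease gene hch-1 had 266 embryo reads and 0 reads in the L1 and young adult libraries, while the maternal genes pos-1 and pie-1 had 622 and 157 young adult reads against 679 and 85 embryo reads and were not called between those libraries. The 6 adult markers (vit-2, vit-6, col-19, cpg-2, msp-3 and msp-10) summed to 105 RPM in embryo RNA, 656 in L1 RNA and 5880 in young adult RNA, and 5 of the 6 were at 0 in embryo RNA. L1 RNA thus held reads of adult-type transcripts, such as 270 of the yolk gene vit-2 and 39 of the adult collagen gene col-19. Their part in the L1 values below was not tested.

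All 6 genes with reads had their largest read share in embryo RNA. Together they took 272 RPM there (240 to 307), 62.4 in L1 RNA (47.6 to 79.3) and 24.2 in young adult RNA (17.2 to 33.1). The end genes had reads in embryo RNA alone, and the other 4 were lower at each later stage by point estimate. In whole animals, fewer cells of a type and less RNA per cell cannot be told apart, and neither can a larger share of other transcripts. The members rest on few reads, from 256 in embryo RNA to 39 in young adult RNA for all 6 genes together.

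The epidermal factors come first, with positions from the reference annotation, since the deposited tables hold no coordinates. The gene elt-1 (W09C2.1, WBGene00001249; chromosome IV, 9614995 to 9620280, plus strand, WBcel235) had 95 reads in embryo RNA, 14 in L1 RNA and 7 in young adult RNA. These are 101 RPM (81.6 to 123), 13.9 (7.53 to 23.1) and 4.05 (1.75 to 8.95). The embryo interval lies above both others, while the L1 and young adult intervals overlap.

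The gene elt-6 (F52C12.5, WBGene00001253; chromosome IV, 1917977 to 1921643, plus strand) had 42 embryo reads, 10 L1 reads and 2 young adult reads. Its read share was 44.2 RPM in embryo RNA (32.1 to 60.3), 9.67 in L1 RNA (4.71 to 18.1) and 1.52 in young adult RNA (0.15 to 4.48). Embryo RNA again stands apart, and the L1 interval lies just above that of young adult RNA. The annotation places egl-18 directly before elt-6 on the same strand, with 136 bases between them.

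The gene elt-3 (K02B9.4, WBGene00001251; chromosome X, 13934874 to 13941216, plus strand) has 2 isoform entries, both at 0 reads. Of these, 1 is named after a sequenced read. Of 3913 genes listed at 0 in all libraries, 2341 have at least 1 entry named after a read, so a listed 0 does not show that no read was obtained. The value of elt-3 is therefore not read as absence of its RNA.

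In the gut lineage, end-3 (F58E10.5, WBGene00001311; chromosome V, 14014695 to 14015980, plus strand) had 4 embryo reads, or 4.25 RPM (1.16 to 10.9), and 0 reads at the later stages. Its paralog end-1 (F58E10.2, WBGene00001310; chromosome V, 13985128 to 13987074, plus strand) had 18 embryo reads, or 19.1 RPM (11.3 to 30.2), and 0 reads at the later stages. These genes lie 27620 bases apart. With the counting error of both libraries included, the exact interval of the ratio puts end-1 at least 4.75-fold lower in L1 RNA and at least 7.52-fold lower in young adult RNA than in embryo RNA. For end-3 that interval reaches 0.713-fold in L1 RNA and so includes 1, and its bound in young adult RNA is 1.13-fold lower. Taking the embryo reads as exact, the 3 reads that a count of 0 allows would give 6.48-fold and 10.3-fold for end-1 and 1.44-fold and 2.28-fold for end-3.

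The gene elt-2 (C33D3.1, WBGene00001250; chromosome X, 10481240 to 10483441, plus strand), the main regulator of the differentiated intestine, had 45 embryo reads, 24 L1 reads and 18 young adult reads. Its read share was 48 RPM in embryo RNA (34.9 to 63.9), 23.9 in L1 RNA (15.1 to 35.1) and 11 in young adult RNA (6.62 to 17.7). Neighbouring stages overlap in their intervals, and the embryo and young adult intervals do not.

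The gene elt-7 (C18G1.2, WBGene00015981; chromosome V, 4770670 to 4773086, plus strand), which shares much of its function with elt-2, had 52 embryo reads, 15 L1 reads and 12 young adult reads. Its read share was 54.9 RPM in embryo RNA (41.2 to 72.4), 14.9 in L1 RNA (8.25 to 24.3) and 7.67 in young adult RNA (3.85 to 13). Embryo RNA stands above both others, which overlap.

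**Figure D1:**
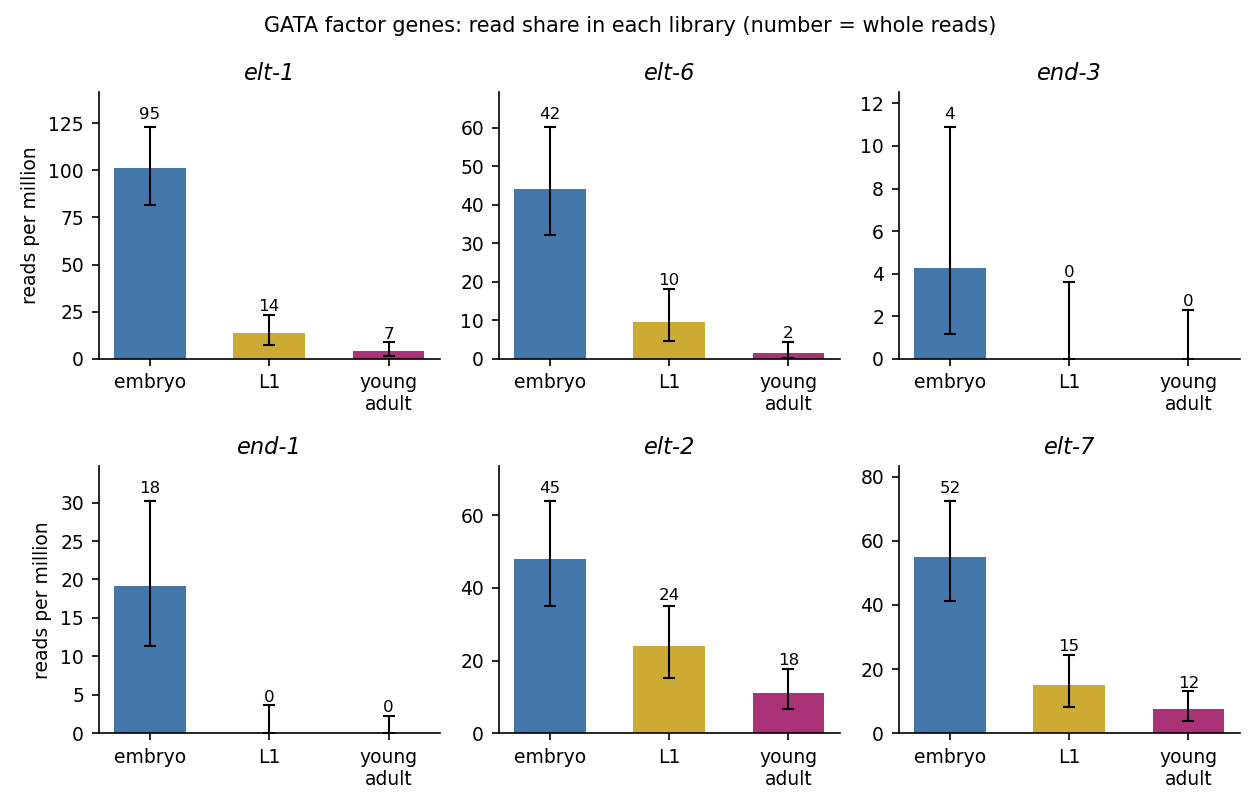
Read share in RPM (y axis, a linear scale of its own in each panel) of 6 GATA factor genes in the embryo, L1 and young adult libraries. Bars are the single library's value, lines are exact Poisson 95% intervals and numbers are whole reads; the embryo bar is the highest in each panel, and end-3 and end-1 have 0 reads in the later libraries.

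Read shares of 2 libraries were compared by their ratio with its exact conditional binomial interval, for each gene with at least 20 reads over the pair. A gene is called when its whole interval lies at or beyond a 2-fold difference. Between the L1 and embryo libraries, elt-1 was 7.33-fold lower in L1 (4.16 to 13.9), elt-6 4.54-fold lower (2.24 to 10.1) and elt-7 3.74-fold lower (2.08 to 7.16), and these 3 of 4 compared members were called. The fourth, elt-2, was 2.03-fold lower in point estimate (1.21 to 3.48) and was not called. Over all 8382 genes compared, 33% were called lower in L1 RNA, and 46.4% were called in either direction. Members met the read minimum mainly through their embryo reads, so the count of calls follows in part from that minimum and is not read against the other genes.

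The median gene of this pair was 2.21-fold lower in L1 RNA (log2 ratio -1.14), and the median of the 4 members was 4-fold lower. The fold of elt-2 was thus near the median of all genes. EdgeR TMM factors move the log2 median of all genes by 0.87. With them elt-1 was 4-fold lower (2.27 to 7.6) and was the only member called of the 4. With the same factors elt-6 was 2.48-fold lower (1.22 to 5.54), elt-7 2.04-fold lower (1.13 to 3.91), and the interval of elt-2 included 1 (0.66 to 1.9). Ribosomal protein transcripts took 33.45% of L1 reads and 11.11% of embryo reads. With those transcripts left out of the totals, elt-1 was again the only member called of the 4.

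Between the young adult and L1 libraries no member was called, with 3 of them compared. Over all 8043 genes 28.7% were called, 14.2% lower and 14.5% higher, around a median log2 ratio of 0.32. The gene elt-1 had 7 young adult reads against 14 L1 reads and was 3.17-fold lower in young adult RNA (1.2 to 9.27). The gene elt-2 was 2.11-fold lower there (1.1 to 4.13). Both of these intervals exclude 1 but not a 2-fold difference. The gene elt-7 was 1.98-fold lower in point estimate with an interval that includes 1 (0.865 to 4.63). With 2 young adult reads against 10 L1 reads, elt-6 missed the read minimum, and its ratio has a wide interval (1.69-fold to 74.3-fold lower).

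Between the young adult and embryo libraries all 4 compared members were called lower, against 29.3% of 8636 genes called lower and 42.5% called either way. As before, they met the read minimum through their embryo reads. In young adult RNA elt-6 was 35.9-fold lower (9.35 to 306), elt-1 23.2-fold (10.8 to 59.3), elt-7 7.41-fold (3.91 to 15.3) and elt-2 4.28-fold (2.43 to 7.85). The median log2 ratio was -3.65 for the 4 members and -0.71 for all genes. With TMM factors, which move the median of all genes by 0.80, elt-2 lost its call at 2.46-fold lower (1.39 to 4.51) and the other 3 kept theirs.

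**Figure D2:**
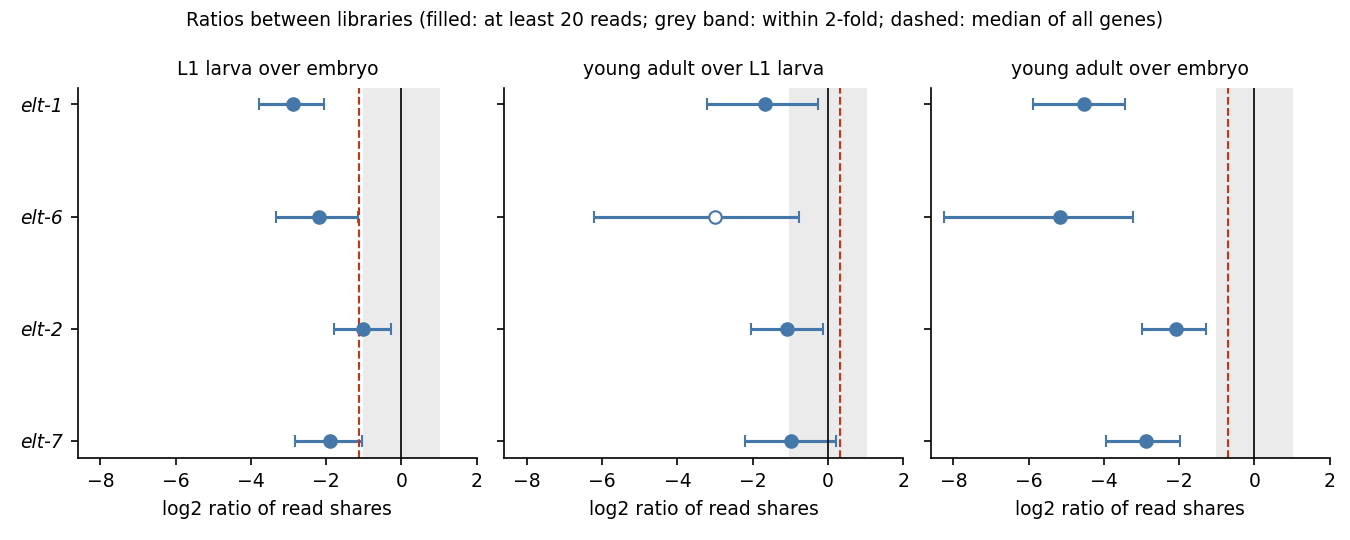
Log2 ratio of read shares (x axis) for elt-1, elt-6, elt-2 and elt-7 in the 3 pairs of libraries, with 95% counting intervals. Filled points have at least 20 reads over the pair, the open point (elt-6, young adult over L1 larva) has fewer, the grey band is within 2-fold, and the dashed line is the median of all genes compared, computed with 0.5 read added; elt-1 and elt-6 lie farthest left against embryo RNA.

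Relative to the gut factors, the epidermal factors were lower at the later stages in some pairs of genes, which can be read without any scaling of libraries. The ratio of elt-2 reads to elt-1 reads was 1.71 in L1 RNA and 0.474 in embryo RNA, a 3.62-fold difference (1.61 to 8.28). In young adult RNA that ratio was 2.57 against 0.474 in embryo RNA, a 5.43-fold difference (1.97 to 16.4). Transcript length and total depth cancel in this comparison, since each ratio uses the same genes.

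An interval above 1 was also found for elt-7 over elt-1 between the young adult and embryo libraries, at 3.13-fold (1.05 to 9.93), and for elt-2 over elt-6, at 8.4-fold (1.8 to 77.8). For elt-7 over elt-6 the interval reached just below 1 (0.983 to 46.4). Of 18 such intervals, over 6 pairs of genes and 3 pairs of libraries, 4 excluded 1, and no adjustment was made for their number. Within a tissue no difference was resolved: elt-7 over elt-2 differed by 0.577-fold (0.228 to 1.43) and elt-6 over elt-1 by 0.646-fold (0.0632 to 3.6) between the young adult and embryo libraries.

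Taken over the 6 genes, the gut factors held 119 of 256 GATA reads in embryo RNA, which is 46.5% (40.3 to 52.8, Clopper-Pearson). They held 39 of 63 L1 reads, or 61.9% (48.8 to 73.9), and 30 of 39 young adult reads, or 76.9% (60.7 to 88.9). The embryo and young adult intervals are apart, and the L1 interval overlaps both. Without the end genes, elt-2 and elt-7 held 41.5% of the remaining embryo reads (35.1 to 48.1).

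Relative to embryo RNA, more genes of the differentiated intestine were called higher than lower, while elt-2 and elt-7 were lower in point estimate. The list of 28 intestine genes had 26 with enough reads in the L1 and embryo pair, of which 13 had higher and 3 had lower shares in L1 RNA, with a median log2 ratio of 1.17. Between the young adult and embryo libraries 10 of 23 rose and 2 fell, which TMM factors turned into 14 and 1. Over all genes 13.4% were called higher in the first of these pairs and 13.2% in the second. Between the young adult and L1 libraries 7 of 25 were lower and 5 higher in young adult RNA, or 7 and 4 with TMM factors, around a median log2 ratio of 0.73. Over all genes of that pair 14.2% were called lower and 14.5% higher. The list's most abundant genes were the aspartyl protease genes asp-1 and asp-3 and the cathepsin B-like protease genes cpr-5 and cpr-1. In L1 RNA asp-1 had 1710 reads, against 230 in embryo RNA (log2 ratio 2.78). In young adult RNA asp-3 had 1935 reads, against 211 in embryo RNA (log2 ratio 2.42). The gene cpr-5 had 1404 young adult reads against 3 embryo reads, and cpr-1 had 811 L1 reads against 5 embryo reads.

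Set against that list, elt-2 and elt-7 together had 52.3 reads for every 1000 reads of intestine genes in embryo RNA (42.4 to 63.8). This ratio was 5.89 in L1 RNA (4.19 to 8.05) and 2.32 in young adult RNA (1.56 to 3.31). The 3 intervals, which count the error of the factor reads alone, do not overlap. The 4 most abundant genes of the list held 24.2% of its embryo reads, 58.6% of its L1 reads and 64.9% of its young adult reads. Without them, a choice made after seeing the data, the ratio was 69 in embryo RNA (56 to 84.2), 14.2 in L1 RNA (10.1 to 19.4) and 6.6 in young adult RNA (4.45 to 9.42), and the intervals again do not overlap.

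The list of epidermis and cuticle genes had a different course. It does not hold the adult collagen gene col-19, which had 0 embryo reads, 39 L1 reads and 1855 young adult reads. The course is therefore that of the listed genes only. Of 17 compared between the L1 and embryo libraries 12 were lower and 2 higher in L1, with a median log2 ratio of -2.59. Over all genes 33% were called lower and 13.4% higher, around a median of -1.14. With TMM factors 6 of the 17 were lower and 2 higher, against 32.3% of all genes called in either direction. Between the young adult and embryo libraries 13 of 16 were lower and 1 higher, against 29.3% and 13.2% of all genes. With TMM factors 12 were lower and 1 higher, against 36.8% of all genes called in either direction. Between the young adult and L1 libraries 5 of 9 were lower and 0 higher in young adult RNA, with a median log2 ratio of -2.04. Over all genes of that pair 14.2% were called lower and 14.5% higher. With TMM factors 6 of the 9 were lower and 0 higher, against 28.1% of all genes called in either direction. The cuticle collagen gene sqt-3 was 27.4-fold lower in L1 RNA than in embryo RNA (22.9 to 32.9), and noah-2, which encodes a component of the apical extracellular matrix, 12.3-fold lower (7.86 to 20.2). Its relative noah-1 was 23.2-fold lower (14.8 to 38.3). The spectraplakin gene vab-10, whose product anchors epidermal attachments, was 2.49-fold lower (1.9 to 3.29) and not called.

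For every 1000 reads of that list, elt-1 and elt-6 had 27.9 reads in embryo RNA (23.4 to 33), 38.8 in L1 RNA (24.9 to 57.8) and 32.7 in young adult RNA (15 to 62.1). All 3 intervals overlap. The embryo sum is dominated by a few cuticle genes, among them sqt-3 with 3191 of the list's 4907 embryo reads. That gene had 126 of the list's 618 L1 reads and 29 of its 275 young adult reads. Unlike the intestine ratio, this ratio was not computed without the most abundant genes. The overlap may therefore rest on sqt-3 and similar genes, and is not read as a steady ratio or as a contrast with the gut.

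**Figure D3:**
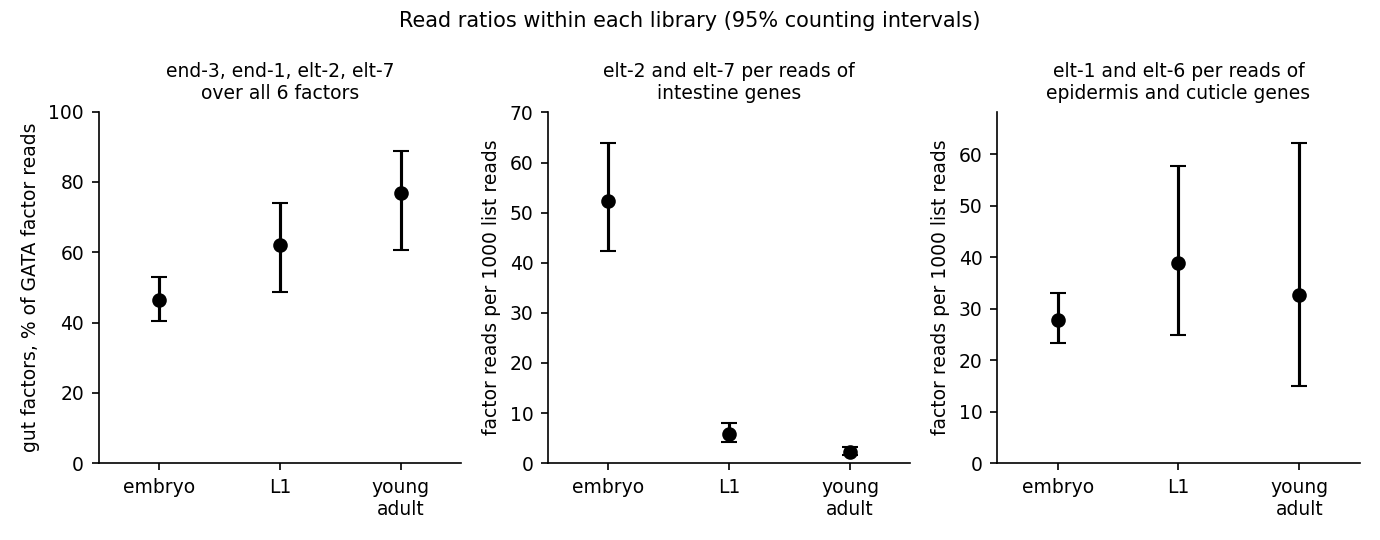
Read ratios within each library (y axes) with 95% counting intervals: the percentage of GATA factor reads that belong to gut factors (left), elt-2 and elt-7 reads per 1000 reads of intestine genes (middle), and elt-1 and elt-6 reads per 1000 reads of epidermis and cuticle genes (right). The left values are 46.5%, 61.9% and 76.9% from embryo to young adult, the middle ones 52.3, 5.89 and 2.32, and the right ones overlap. On the left, the epidermal factors are elt-1 and elt-6 alone.

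Regulators around these factors were called lower in the later libraries for part of each list, on lists of 6 to 8 compared genes. Over all genes, 33% were called lower in L1 RNA and 29.3% in young adult RNA than in embryo RNA. Among 6 compared epidermis regulators 4 were lower in L1 RNA than in embryo RNA, though with TMM factors 0 were lower and 1 was higher. The zinc finger gene lin-26 was 3-fold lower (2.44 to 3.72), the nuclear receptor gene nhr-23 3.81-fold (2.19 to 6.97) and blmp-1, a transcription factor gene, 5.5-fold (2.85 to 11.6). The STAT family gene sta-2 had 44 L1 reads against 15 embryo reads (log2 ratio 1.41) and was not called. Of the same 6 in the young adult and embryo pair, 4 were lower and 0 higher, or 2 with TMM factors. The gene vab-3, also on this list, was not analysed here.

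The seam cell list of 11 genes includes elt-1 itself, and 4 of its genes are listed at 0 throughout. Of the 6 compared, 4 were lower in L1 RNA and 6 in young adult RNA than in embryo RNA, or 2 and 4 with TMM factors. The Grainyhead gene grh-1 was 5.09-fold lower in L1 RNA (2.21 to 13.6), a call lost with TMM factors (1.21 to 7.45). The APC-related gene apr-1 was 3-fold lower (1.97 to 4.68) and not called, and the Hox gene lin-39, with 13 L1 reads against 23 embryo reads, was not called either.

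Upstream of the end genes, the 12 listed endoderm regulators had 8 compared in each pair. In L1 RNA 5 were lower and 0 higher than in embryo RNA, or 3 with TMM factors. In young adult RNA 3 of 8 were lower than in embryo RNA, a share near that of all genes, or 1 with TMM factors. In young adult RNA 2 of 8 were higher than in L1 RNA, against 14.5% of all genes, or 1 with TMM factors. The Wnt gene mom-2 was 13-fold lower in L1 RNA than in embryo RNA (7.2 to 25.7), and the Frizzled receptor gene mom-5 8.76-fold lower (4.37 to 19.9). The germline repressor gene pie-1 was 5.4-fold lower (3.18 to 9.7), a call lost with TMM factors (1.74 to 5.3). In young adult RNA it had 157 reads against 17 in L1 RNA (log2 ratio 2.51).

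The endoderm activator gene skn-1, with 188 embryo reads, 106 L1 reads and 87 young adult reads, was called lower in young adult RNA against embryo RNA alone, by 3.7-fold (2.85 to 4.82). With TMM factors that call was lost, at 2.12-fold (1.64 to 2.77). The other GATA factors had few reads or are listed at 0. The gene elt-4, a short relative of elt-2 that lies 5280 bases before it, had 2 embryo reads, 3 L1 reads and 2 young adult reads. The nearly identical med-1 and med-2, which activate the end genes, are listed at 0 in each library.

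Markers of other tissues did not follow a single order. The 5 body wall muscle markers summed to 1200, 2830 and 2050 RPM in the embryo, L1 and young adult libraries, the 5 neuron markers to 586, 2460 and 331, and the 4 pharynx markers to 140, 244 and 55.2. The 5 germline markers summed to 406, 240 and 1670 RPM, with the largest sum in young adult RNA. Genes within a list differed, and egl-21 alone gave 1400 of the 2460 RPM of neuron markers in L1 RNA. Unlike the sums of their lists, myo-3 (muscle), snb-1 (neurons), pha-4 (pharynx) and htp-3 (germline) had their largest share in embryo RNA. The muscle marker tnt-2 had its largest share in young adult RNA. All other markers of these lists peaked in the same library as the sum. The part of germline RNA in the lower read shares of the GATA factors there was not tested.

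The likeness of stage patterns was measured for the 4 members with at least 50 reads. Each gene's 3 read shares were divided by their sum, and genes were ranked by the Euclidean distance of these splits over the 3 libraries. The split of elt-1 was 84.9% embryo, 11.7% L1 and 3.4% young adult, and the nearest of 7185 other genes were lron-11 at a distance of 0.00243, sdn-1, a syndecan gene, at 0.00541 and C34C12.6 at 0.00626. For elt-6, at 79.8%, 17.5% and 2.75%, they were the kinase gene hpk-1 at 0.00352, T25D10.4 at 0.00659 and C01B10.11 at 0.0083.

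The split of elt-2 was 57.9% embryo, 28.8% L1 and 13.3% young adult, nearest to sph-1 at 0.00431, the innexin gene inx-12 at 0.00731 and acox-3, an acyl-CoA oxidase gene, at 0.00874. That of elt-7 was 70.8%, 19.3% and 9.9%, nearest to snf-1 at 0.00431, pmp-3 at 0.00599 and lin-10 at 0.0081. Between 100 and 129 genes lay within a distance of 0.05 of each member. With 3 libraries, closeness is a description of these libraries only. The splits of elt-1 and elt-6 rest on 7 and 2 young adult reads, and no interval was computed for the distances. The order of the nearest genes is therefore not read as resolved.

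The members' reads were spread over isoform entries, most of them named after a sequenced read and not after an annotated transcript. The 7 genes have 71 entries, of which 28 hold at least 2 reads over the 3 libraries. The deposited names give no exon structure, so entries named after a read can be counted but not described. Annotated transcripts held 17% of reads over all genes, and a median of 8.26% in the 2776 genes with 50 to 120 reads.

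For elt-1, 4 of 6 annotated transcripts have an entry, and none of these entries has a read. The other 2 have no entry, and whether entries named after a read match them was not tested. A single entry named after a read held 89.3% of the gene's 116 reads. Its share was 90.5% in embryo RNA (82.8 to 95.6), 92.9% in L1 RNA (66.1 to 99.8) and 57.1% in young adult RNA (18.4 to 90.1), on 7 young adult reads. The intervals overlap, though the embryo and young adult values each lie outside the other's interval. The remaining reads lay in 9 entries of at most 2.7 reads each.

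For elt-2, by contrast, 10 entries held at least 2 reads and none held a majority. The leading entry had 22.2% of embryo reads (11.2 to 37.1), 33.3% of L1 reads (15.6 to 55.3) and 33.3% of young adult reads (13.3 to 59). The next had 33.3% of embryo reads (20 to 49), 16.7% of L1 reads (4.74 to 37.4) and 16.7% of young adult reads (3.58 to 41.4). The order of these entries is reversed between the embryo and the later libraries by point estimate, and their intervals overlap throughout. The annotated transcript held 3.44% of elt-2 reads.

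For elt-7 an annotated transcript, C18G1.2a.1, held 30.9% of reads, with 32.7% in embryo RNA (20.3 to 47.1), 33.3% in L1 RNA (11.8 to 61.6) and 16.7% in young adult RNA (2.09 to 48.4). The other annotated transcript of elt-7 had 0 reads. An entry named after a read led it, with 44.2% of embryo reads (30.5 to 58.7), 46.7% of L1 reads (21.3 to 73.4) and 50% of young adult reads (21.1 to 78.9). For elt-6 the leading entry held 52.4% of embryo reads (36.4 to 68) and 50% of L1 reads (18.7 to 81.3). Its 2 entries with a transcript name, of which 1 is in the reference annotation used here, held 16.7% of the gene's reads. For end-1 the annotated transcript had 5 of 18 reads, and for end-3 the 4 reads fell in 2 entries of 2 reads each. For elt-6, elt-2 and elt-7 the intervals of the leading entry overlap between libraries, as for elt-1.

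**Figure D4:**
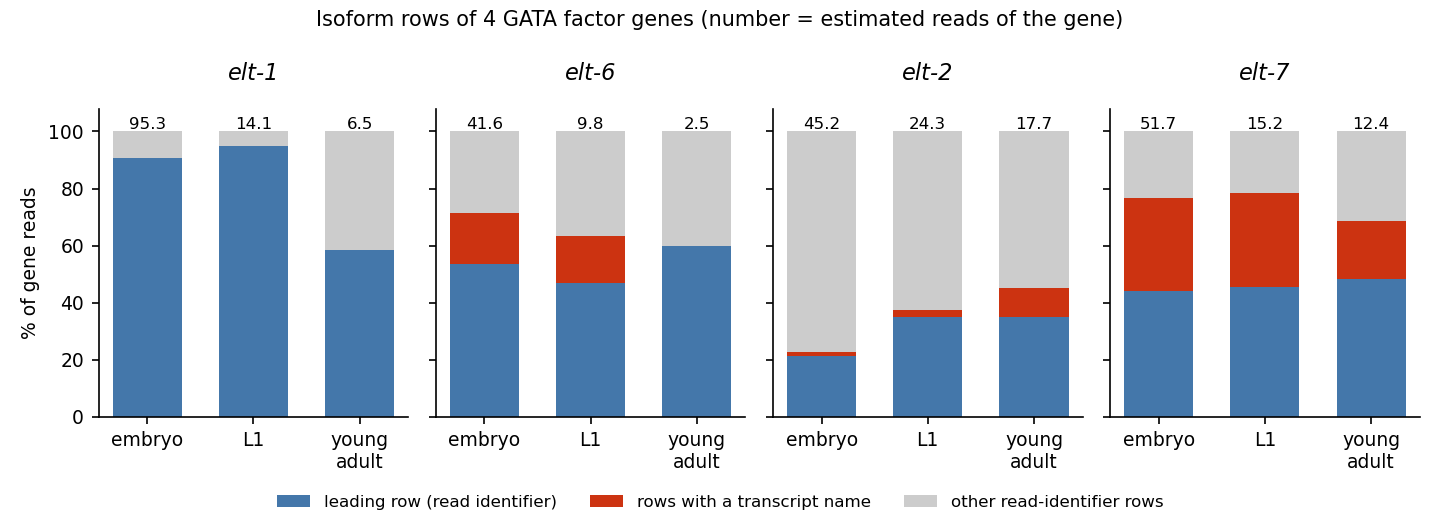
Percentage of each gene's estimated reads (y axis) held by the leading entry, by entries with an annotated transcript name and by other entries, for elt-1, elt-6, elt-2 and elt-7 in the embryo, L1 and young adult libraries. Numbers above the bars are the gene's estimated reads. The gene elt-1 is held mostly by 1 entry and has no reads in entries with an annotated transcript name, while elt-2 is spread over many.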

How the data were processed

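Base-calling used Albacore 2.0.1 per the labels' protocols, and minimap2 2.14 is named in the submitters' processing notes. The sources used here do not give the genome build, annotation, isoform tool or filters. Per isoform entry and library, the deposited series table gives estimated counts of reads, not scaled, whose placeholder for 0 was set to 0. The deposited per-sample tables hold a coverage signal per gene, which equals the estimated reads times 1.326721 in each library and was used for gene symbols only. Of these symbols 10 had become dates and were replaced from a names table. The symbol elt-3 was joined through the reference names, since the per-sample tables have no entry for it.

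Estimated reads were summed per gene and divided by the library total for read shares. Intervals and ratios used sums rounded to whole reads. Levels have exact Poisson intervals, ratios exact conditional binomial 95% intervals, with 20 reads as minimum over a pair and a bound 2-fold from 1 as the call, and log2 ratios had 0.5 read added. How reads were split between entries is not given, so intervals treat estimated reads as counted reads. They measure the spread of counting alone. Coordinates are from Ensembl release 115 (WBcel235). Named genes were all members, the 4 genes of each list with most reads, and the 3 genes nearest in stage split. Members and lists were chosen with earlier results of these data known. Calculations ran in Python 3.11.15 (scipy 1.17.1, pandas 2.3.3 and numpy 2.4.6; plots in matplotlib 3.10.9), with scaling factors from edgeR 4.0.16 and DESeq2 1.42.0 in R 4.3.3. The comparison was tested on simulated reads. Alternatives were other scalings, read minimums, call bounds, rounding, and annotated entries only.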

Additional observations from a re-analysis of the deposited data

How the results depend on the processing

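In 58 of 74 values of single members under an alternative, direction and call were as reported, while 13 lost a call, 3 gained one and 0 changed sign. Part of this count was fixed in advance. Another read minimum cannot change the ratio or call of a member that is still compared, and another call bound cannot change its sign. The count is thus not a measure of robustness. Of 3 members called between the L1 and embryo libraries, 1 was called with edgeR TMM factors, with DESeq2 size factors, without ribosomal protein genes in the total, or with a bound 3-fold from 1. In that order, 32.3%, 32%, 38.2% and 28.8% of all genes were called in either direction. With annotated transcripts alone 0 were called in that pair and 0 between the young adult and embryo libraries, where 1 and 0 members kept 20 reads. Of all genes, 33.3% and 29.7% were then called. Calling any interval that excludes 1 gave 2 of 3 compared members between the young adult and L1 libraries, near the 67.9% of all genes called so. The joint member read share in embryo RNA was 185 RPM with TMM factors and 181 with DESeq2 size factors. With annotated transcripts alone, the library total was also limited to reads of annotated transcripts. Scaled to that smaller total, the joint share was 187 in embryo RNA, 46 in L1 RNA and 14.9 in young adult RNA. These values are not shares of all reads of a library and cannot be set against the other RPM values. Totals without ribosomal protein genes gave 93.8 RPM in L1 RNA and 33.7 in young adult RNA. Of the 63 genes compared on the 6 pathway lists, 43 (68.3%) were called between the L1 and embryo libraries, against 46.4% of all genes, and 27 (42.9%) with TMM factors, against 32.3%. Entries with at least 5 reads numbered 14. Rounding estimated reads down or up, chosen after seeing the data, gave 3 and 2 calls between the L1 and embryo libraries. The causes of these shifts were not tested. No paired analysis was possible because there is 1 library per stage and the labels carry no replicate numbers. Depth limits most comparisons, since members had between 0 and 18 reads in young adult RNA.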

Other observations

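A pair of genes from the marker lists that encode lineage regulators of other tissues, chosen after their values were seen, had most of their reads in embryo RNA. The gene hlh-1 was listed as an embryo marker, so its embryo peak was part of its choice. On the pharynx list that holds pha-4, the genes myo-1, myo-2 and tnt-4 had 3.62-fold, 3.11-fold and 1.41-fold higher shares in L1 RNA than in embryo RNA. The pair is thus no test of a pattern shared by lineage regulators. The muscle regulator gene hlh-1, which encodes the worm MyoD, had 77 embryo reads, 17 L1 reads and 2 young adult reads. It was 4.89-fold lower in L1 RNA (2.87 to 8.83) and 65.9-fold lower in young adult RNA (17.6 to 554) than in embryo RNA. The pharynx regulator gene pha-4, a FoxA factor gene, had 31 embryo reads, 4 L1 reads and 2 young adult reads, and was 8.37-fold lower in L1 RNA (2.96 to 32.6) and 26.5-fold lower in young adult RNA (6.75 to 229). With TMM factors both calls in L1 RNA were lost, with lower bounds of 1.57-fold for hlh-1 and 1.62-fold for pha-4, and both in young adult RNA held.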
